A study of Homo sapiens with 32 samples.

Results

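The dose response of RH4 cells to IHK-44 was read in 4 RNA-seq libraries, 2 at 1 µM and 2 at 100 nM, out of 32 samples in the series. They were chosen by their labels, and each 1 µM library was set against the 100 nM library of the same exposure, 2 h or 6 h. RH4 is an established human alveolar rhabdomyosarcoma line, and total RNA was sequenced. The labels name no genetic change and 1 medium for all cells, so by the labels the groups differ in compound, dose and time. Levels without a compound of the series came from 4 libraries labelled DMSO (the solvent) or NT, a name the labels do not spell out, with 1 of each at 2 h and at 6 h. The remaining 12 RNA-seq libraries, of cells given A485, dCBP or JQAD at the same doses and times, entered the fits, where the spread is shared by all 4 compounds. Every condition had 1 library, 1 cell line was used, and nothing in the labels says whether dishes were treated on separate days. The p-values thus measure only the spread between these libraries, which may be technical. In the fit over both times that spread is how far the dose differences vary between 2 h and 6 h. It can therefore include real changes with time.

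CBP (gene CREBBP) and p300 (gene EP300) are related acetyltransferases that transcription factors bring to enhancers and promoters. There they acetylate histones, histone H3 lysine 27 among them, and other proteins, and they help to keep nearby genes transcribed. Alveolar rhabdomyosarcoma is a tumour of cells on the skeletal muscle path. It carries in most cases a fusion of PAX3 or PAX7 with FOXO1, and its cells express the muscle regulators MYOD1 and MYOG without completing differentiation. The series describes its compounds as inhibitors or degraders of CBP and p300, and does not say which IHK-44 is.

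Coding genes received 13466631 counts in the 1 µM library at 2 h, 16625903 at 6 h, 15180490 in the 100 nM library at 2 h and 16799327 at 6 h. Levels are in CPM, the counts of a gene scaled to the same coding total in each library. All 7 markers of the line were detected in each of the 8 libraries used here, with a summed level of 947 to 1709 CPM at 1 µM, 1319 to 1836 CPM at 100 nM and 2255 to 2469 CPM in DMSO and NT. Markers of epithelial, blood and endothelial cells (12 genes) stayed under 1 CPM in all 8 libraries, with EPCAM, KRT19 and HBB among those at 0. In such bulk libraries fewer cells of a kind and less RNA in each cell cannot be told apart. Reads outside the coding genes were 8.20% (1 µM) and 8.58% (100 nM) at 2 h, and 9.58% and 9.22% at 6 h, against 5.63% to 6.43% in DMSO and NT. The order of the doses in that share thus turned between the times, and its part in the results was not tested.

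IHK-44 lowered 14 genes further at 1 µM than at 100 nM, and no gene passed in the other direction. The genes were SPRY1, RGS16, TGIF1, SNAI2, IRF2BPL, SPRY2, TNFAIP3, ID3, FOXC2, MSC, ADAMTS1, PRDM12, CCN1 and AMOTL2. They include feedback inhibitors of growth factor and inflammatory signalling and several transcription factors. At 100 nM their level was a median of 39.8% of the mean of DMSO and NT at 2 h and 58.0% at 6 h. At 1 µM it was 15.5% at 2 h and 16.1% at 6 h. The test was edgeR's quasi-likelihood test over the 16 libraries of treated cells, with 1 block for every combination of compound and time, and a dose term for each compound. Of 13137 genes tested, 0.107% passed a Benjamini-Hochberg adjusted p of 0.05, while 194 genes lower and 121 higher had an unadjusted p under 0.05.

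For 13 of the 14 genes both 1 µM libraries lay below both 100 nM libraries, with ADAMTS1 as the exception. The genes were called for dose in these same libraries, so such separation, here and for single genes below, is no further support. Its share over all genes tested was not counted. For 12 of the 14 all 4 IHK-44 libraries lay below every DMSO and NT library. The remaining pair were CCN1, at 232 CPM with 100 nM at 6 h against 192 CPM in NT at 2 h, and AMOTL2, at 162 CPM against 157 CPM in DMSO at 6 h. Within each time CCN1 lay below DMSO and NT, which were at 265 and 261 CPM at 6 h. From 2 h to 6 h the level relative to DMSO and NT was higher for 12 of the 14 at 100 nM and for 9 of the 14 at 1 µM. The calls favour high levels in these same 100 nM libraries, and no share over all genes is given, so these counts are descriptions.

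**Figure D1:**
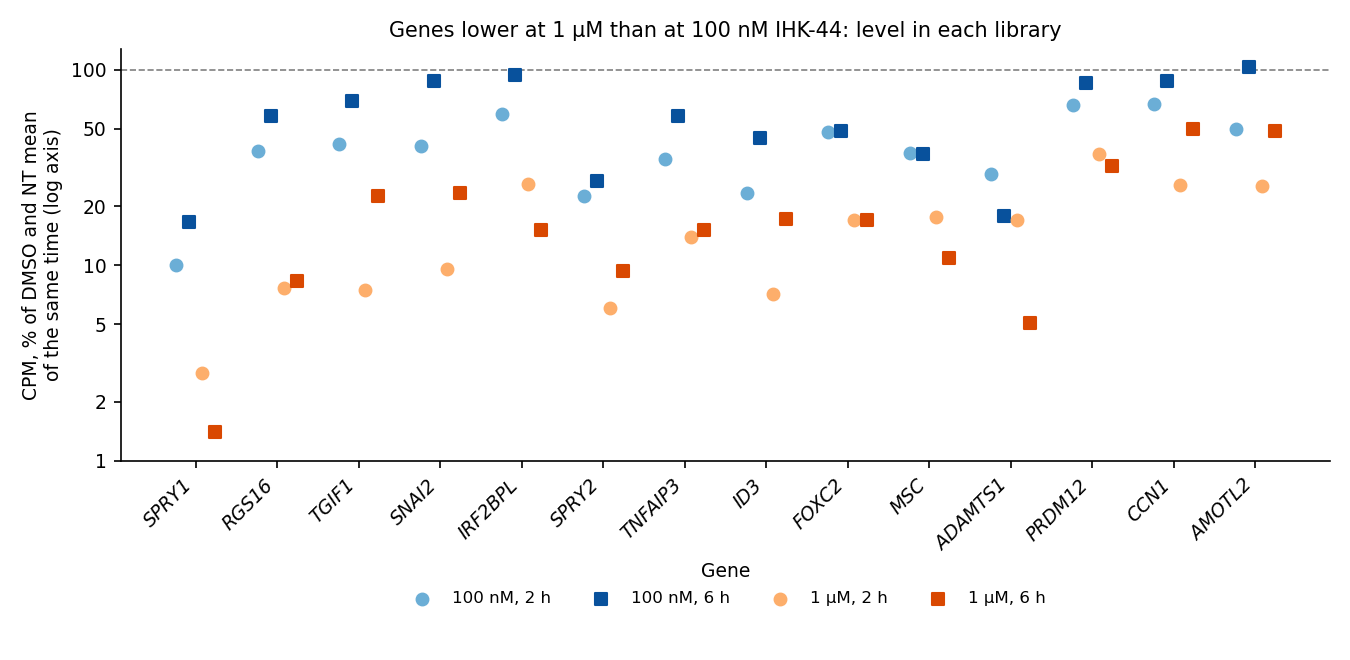
Level of each of the 14 genes in the 4 IHK-44 libraries, as a percent of the mean CPM of DMSO and NT at the same time, on a log axis. Circles are 2 h and squares 6 h, blue is 100 nM and orange 1 µM, and each point is 1 library. The 1 µM points lie at 1.40% to 49.9% of that mean at 6 h and the 100 nM points at 16.8% to 103%.

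SPRY1 and SPRY2, the Sprouty proteins that dampen receptor tyrosine kinase signalling to ERK, were in the called set. SPRY1 was at 83.3 to 104 CPM in DMSO and NT, at 8.70 CPM (2 h) and 17.3 CPM (6 h) with 100 nM, and at 2.45 CPM and 1.44 CPM with 1 µM. The 1 µM values rest on 33 and 24 reads, with exact Poisson 95% intervals of 1.69 to 3.44 CPM and 0.925 to 2.15 CPM that cover counting error only. SPRY1 thus had the largest fitted dose difference of the called genes, a log2 value of -2.76 (SE 0.34, edgeR adjusted p 0.00724). SPRY2 was at 108 to 116 CPM in DMSO and NT, at 25.4 and 30.2 CPM with 100 nM, and at 6.76 and 10.5 CPM with 1 µM (log2 -1.73, SE 0.17, edgeR adjusted p 0.00275). Its gap between doses was 3.75-fold at 2 h and 2.88-fold at 6 h, and the libraries of the 2 doses did not overlap for either gene. Of the 12 genes listed for ERK feedback, these 2 passed as lower and none as higher, beside 0.107% of all genes tested. SPRY4, another Sprouty, had a fitted log2 difference of 0.50, and DUSP6, an ERK phosphatase, -0.09 (95% interval -0.69 to 0.51). DUSP6 had opposite orders at the 2 times, 8.96 (100 nM) and 4.83 CPM (1 µM) at 2 h and 7.44 and 11.5 CPM at 6 h, and its time term of 1.51 did not pass (SE 0.38, edgeR unadjusted p 0.00189, adjusted p 0.826). The median of the list was 0.00, beside 0.01 over all genes tested.

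TNFAIP3, which encodes A20, an inhibitor of NF-κB signalling, was at 161 to 185 CPM in DMSO and NT. With 100 nM it was at 58.0 CPM (2 h) and 107 CPM (6 h), and with 1 µM at 23.2 and 28 CPM (log2 -1.67, SE 0.17, edgeR adjusted p 0.00405). RGS16, which speeds the shut-off of G protein signals, was at 7.08 to 8.88 CPM in DMSO and NT and at 3.36 and 4.17 CPM with 100 nM. At 1 µM it was left with 9 reads at 2 h and 10 at 6 h, 0.668 and 0.601 CPM, so its log2 difference of -2.59 (SE 0.41, edgeR adjusted p 0.0253) is imprecise. ADAMTS1, a secreted metalloprotease, was at 233 to 272 CPM in DMSO and NT, at 77.3 and 42.0 CPM with 100 nM, and at 45.1 and 11.9 CPM with 1 µM (log2 -1.29, SE 0.19, edgeR adjusted p 0.0338). Its 100 nM library at 6 h lay below its 1 µM library at 2 h, so the doses separate only within each time.

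Among transcription factors the smallest adjusted p was that of SNAI2, which encodes the zinc-finger repressor Slug. It was at 101 to 123 CPM in DMSO and NT, at 49.7 CPM (2 h) and 88.8 CPM (6 h) with 100 nM, and at 11.7 and 23.8 CPM with 1 µM. The doses were 4.26-fold apart at 2 h and 3.74-fold at 6 h (log2 -2.02, SE 0.16, edgeR adjusted p 0.000833). With 100 nM at 6 h SNAI2 was at 87.9% of the DMSO and NT mean, and with 1 µM at 23.5%. TGIF1, a homeodomain corepressor of SMAD signalling, was at 106 to 121 CPM in DMSO and NT, 49.5 and 76.3 CPM with 100 nM, and 8.84 and 25 CPM with 1 µM (log2 -2.03, SE 0.22, edgeR adjusted p 0.00495). Both doses of TGIF1 were closer to DMSO and NT at 6 h than at 2 h. ID3, a helix-loop-helix inhibitor of DNA binding and a target of BMP signals, was at 197 to 222 CPM in DMSO and NT, 51.1 and 92.2 CPM with 100 nM, and 15.7 and 35.4 CPM with 1 µM (log2 -1.56, SE 0.21, edgeR adjusted p 0.0145).

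MSC, or musculin, a basic helix-loop-helix repressor of the muscle lineage, was at 256 to 366 CPM in DMSO and NT. It was at 134 and 98.1 CPM with 100 nM and at 63.2 and 29.1 CPM with 1 µM (log2 -1.44, SE 0.17, edgeR adjusted p 0.00749). FOXC2, a forkhead factor of mesoderm, kept nearly the same levels at both times, 25.6 and 24.6 CPM with 100 nM and 8.99 and 8.60 CPM with 1 µM, against 48.2 to 57.7 CPM in DMSO and NT. PRDM12, of the PR-domain zinc-finger family, was at 75.2 and 109 CPM with 100 nM and at 42.0 and 41.0 CPM with 1 µM, against 112 to 131 CPM. IRF2BPL was at 93.2 and 129 CPM with 100 nM, the latter 94.2% of its DMSO and NT mean, and at 41.3 and 20.8 CPM with 1 µM. For these 4 genes the libraries of the 2 doses did not overlap, and the fitted log2 differences of FOXC2, PRDM12 and IRF2BPL were -1.54, -1.16 and -1.92 (edgeR adjusted p 0.00964, 0.0145 and 0.029).

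CCN1, a secreted matrix protein, and AMOTL2, an angiomotin that restrains YAP, are targets of YAP and TEAD. CCN1 was at 142 CPM (2 h) and 232 CPM (6 h) with 100 nM and at 54.7 and 131 CPM with 1 µM, against 192 to 265 CPM in DMSO and NT. AMOTL2 was at 121 and 162 CPM with 100 nM and at 61.8 and 76.4 CPM with 1 µM, against 157 to 244 CPM. The doses overlapped for neither gene, and at 6 h the 100 nM library of AMOTL2 was at 103% of the DMSO and NT mean. The fitted differences were the smallest of the called set, -1.12 and -1.06 (edgeR adjusted p 0.0304 and 0.0325). Of the 10 genes listed for YAP and TEAD these 2 passed, beside 0.107% of all genes tested, and the list's median was -0.12, beside 0.01 over all genes tested. AMOTL2 passed in 8 of 15 alternatives and CCN1 in 10 of 15. CCN2, related to CCN1, had a fitted log2 difference of 0.11.

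The series concerns CpG islands, so the CpG content of promoters is shown for the 3 called genes with the largest fitted difference that have an entry in the promoter table. Sequences are from RefSeq on GRCh38.p14, from 250 bases before to 50 after the annotated start, 5′ to 3′ on the gene's strand, with CpG dinucleotides in capitals. SPRY1 had 2 entries and TGIF1 had 7, and the first listed was used, so the start that RH4 cells use was not determined. SPRY1 is at chr4:123396545-123396844 (plus strand), RGS16 at chr1:182604340-182604639 (minus strand) and TGIF1 at chr18:3411759-3412058 (plus strand).
SPRY1: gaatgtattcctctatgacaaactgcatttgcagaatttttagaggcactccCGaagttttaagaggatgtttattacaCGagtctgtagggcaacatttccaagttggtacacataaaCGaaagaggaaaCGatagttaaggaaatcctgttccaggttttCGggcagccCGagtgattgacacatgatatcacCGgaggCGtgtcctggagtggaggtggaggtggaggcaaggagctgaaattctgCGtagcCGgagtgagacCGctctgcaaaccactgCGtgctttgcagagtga
RGS16: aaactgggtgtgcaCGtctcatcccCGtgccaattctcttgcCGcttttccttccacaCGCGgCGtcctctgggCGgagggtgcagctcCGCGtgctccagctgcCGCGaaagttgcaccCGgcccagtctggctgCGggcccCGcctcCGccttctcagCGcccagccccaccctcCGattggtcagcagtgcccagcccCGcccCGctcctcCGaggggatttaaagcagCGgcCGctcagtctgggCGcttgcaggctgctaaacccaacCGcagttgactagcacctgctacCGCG
TGIF1: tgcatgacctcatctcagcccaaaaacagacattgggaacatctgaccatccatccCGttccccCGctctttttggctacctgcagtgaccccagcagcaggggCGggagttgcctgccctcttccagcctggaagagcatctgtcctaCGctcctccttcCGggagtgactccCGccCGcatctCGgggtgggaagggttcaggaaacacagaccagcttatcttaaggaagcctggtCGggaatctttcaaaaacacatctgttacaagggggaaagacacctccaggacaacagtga

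These windows held 12, 26 and 9 CpG dinucleotides, against a median of 26 (quartiles 18 and 34) over the 10695 tested genes with an entry. Of the 14 called genes 9 had an entry, too few for a comparison of the set's composition, which is void. Their counts ran from 1 in AMOTL2 to 35 in TNFAIP3, with 30 in SPRY2 and 31 in IRF2BPL, so the windows shown do not stand for the others. AMOTL2 had 2 entries and SPRY2 had 3, so their counts depend on the entry used.

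For another set of genes, MYOD1 among them, the gap between the doses was wider at 6 h than at 2 h. MYOD1, the master regulator of the muscle lineage, was at 508 to 677 CPM in DMSO and NT. At 2 h it was at 288 CPM with 100 nM and 203 CPM with 1 µM, and at 6 h at 270 and 27.2 CPM. The doses were thus 1.42-fold apart at 2 h and 9.94-fold at 6 h, and at 6 h the 1 µM library held 4.10% of the DMSO and NT mean and the 100 nM library 40.8%. The term for a dose difference at 6 h beyond that at 2 h was -2.82 in log2 (SE 0.31, edgeR adjusted p 0.00415).

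That term passed for 9 of 13137 genes (0.0685%), all with the larger fall at 6 h, and 204 genes had an unadjusted p under 0.05. Besides MYOD1 they were ANKRD1, FGF7, ATOH8, NOG, IL21R, NNMT, SOX8 and GAS1. The 4 IHK-44 libraries fill this model completely, so its spread comes from A485, dCBP and JQAD and assumes that IHK-44 libraries vary alike.

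SOX8, a SOX factor with high levels in this line, was at 809 to 870 CPM in DMSO and NT, at 487 (100 nM) and 452 CPM (1 µM) at 2 h, and at 246 and 43.6 CPM at 6 h. ATOH8, a basic helix-loop-helix factor, was at 236 and 186 CPM at 2 h and at 159 and 11.5 CPM at 6 h, against 383 to 446 CPM. IL21R, a cytokine receptor, was at 113 and 95.5 CPM at 2 h and at 50.6 and 5.51 CPM at 6 h, against 224 to 274 CPM. In these genes the doses were 1.08- to 1.27-fold apart at 2 h and 5.63- to 13.9-fold apart at 6 h, with the 1 µM library of 6 h below every other. Their terms were -2.39 (SE 0.34), -3.46 (SE 0.30) and -2.96 (SE 0.29), with edgeR adjusted p of 0.0299, 0.00105 and 0.0018.

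The secreted factors in the set were FGF7, a growth factor, and NOG, or noggin, which binds and blocks BMPs. FGF7 was at 30.4 (100 nM) and 25.9 CPM (1 µM) at 2 h and at 21.3 and 1.29 CPM at 6 h, against 49.9 to 57.1 CPM in DMSO and NT. NOG was at 15.2 and 7.28 CPM at 2 h and at 19.4 and 0.842 CPM at 6 h, against 23.9 to 30.6 CPM, the last value from 14 reads. In both, the 100 nM libraries at 6 h held 40.1% and 79.8% of the DMSO and NT mean and the 1 µM libraries 2.43% and 3.46%. The terms were -3.78 (SE 0.41, edgeR adjusted p 0.00202) and -3.45 (SE 0.54, edgeR adjusted p 0.0299).

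ANKRD1, an ankyrin-repeat protein of muscle and a target of YAP and TEAD, was at 5.80 and 4.75 CPM at 2 h and at 8.63 and 0.241 CPM at 6 h, against 10.1 to 13.5 CPM. The last value is 4 reads, with an exact Poisson 95% interval of 0.0656 to 0.616 CPM, so the size of its term, -4.83 (SE 0.87, edgeR adjusted p 0.0321), is imprecise. GAS1, a membrane protein of Hedgehog signalling, was at 81.7 and 52.5 CPM at 2 h and at 61.2 and 9.92 CPM at 6 h, against 290 to 341 CPM. NNMT, nicotinamide N-methyltransferase, was at 56.1 and 48.1 CPM at 2 h and at 44 and 6.26 CPM at 6 h, against 53.1 to 67.9 CPM. All 3 genes had their lowest level in the 1 µM library of 6 h.

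**Figure D2:**
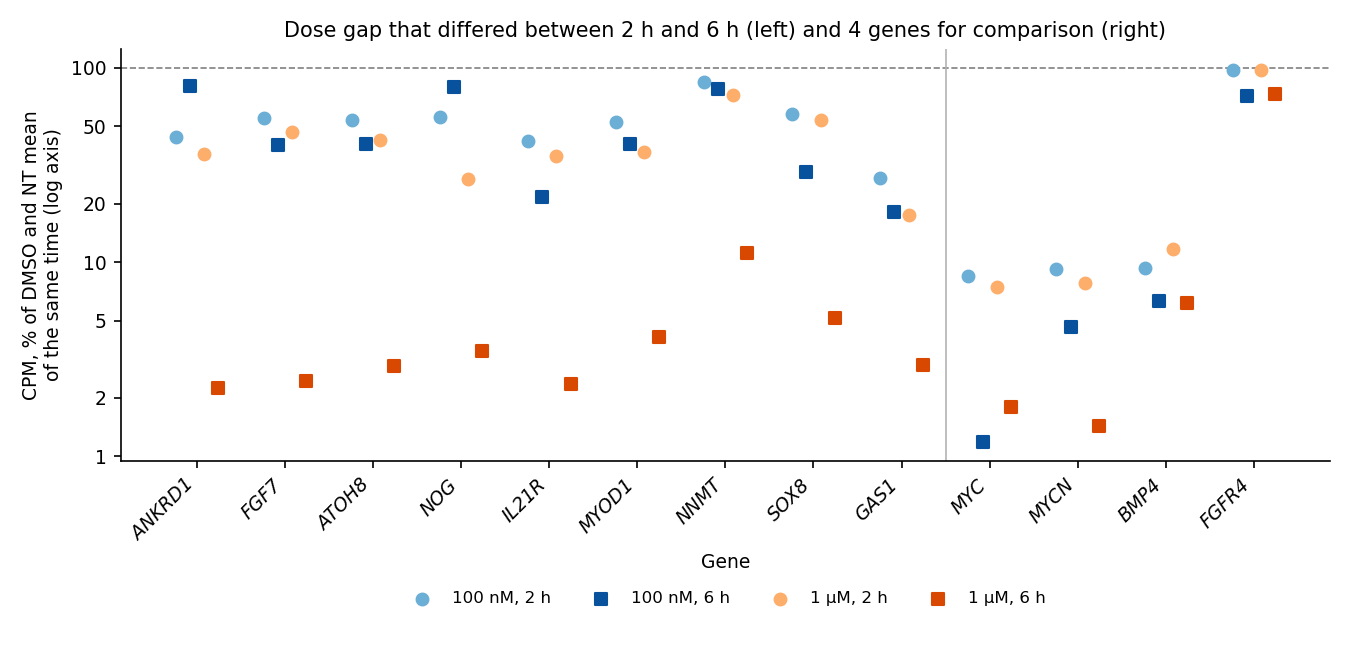
Levels in the 4 IHK-44 libraries as a percent of the mean CPM of DMSO and NT at the same time, on a log axis, for the 9 genes whose dose difference changed with time and, right of the line, for MYC, MYCN, BMP4 and FGFR4. Circles are 2 h and squares 6 h, blue is 100 nM and orange 1 µM, and each point is 1 library. For the 9 genes the 1 µM library of 6 h stands alone, at 2.26% to 11.1%.

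With the 6 h pair alone, 52 of 13396 genes passed (0.388%), all lower at 1 µM, and with the 2 h pair alone 3 of 13362 (0.0225%), SNAI2, SPRY2 and TGIF1. These fits set 1 IHK-44 library against 1 and take their spread from the other compounds. The genes passing with the 6 h pair included all 9 with the time term, but these fits share libraries, so the overlap is no further support. Their median log2 ratio of CPM + 1 at 2 h was -0.25, against 0.03 over all 12174 genes with a mean of at least 1 CPM. As a set they thus leaned the same way at 2 h. Of 12 tested members of the list of rhabdomyosarcoma transcription factors, 5 passed at 6 h, MYOD1, MYOG, SOX8 and FOXO1 among them. None of the 12 passed over both times, and their median fitted log2 difference was -0.83, with 11 below 0. The list was chosen with earlier results of these data known, so its counts at 6 h, here and below, are descriptions. Other lists also held genes passing at 6 h, the ERK feedback and mesenchymal lists among them. A gap that is wider at 6 h than at 2 h adds to the spread in the fit over both times. Not passing there thus says little about genes with such a gap.

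MYOG, which drives terminal muscle differentiation, was at 264 to 300 CPM in DMSO and NT, at 211 (100 nM) and 200 CPM (1 µM) at 2 h, and at 111 and 29.8 CPM at 6 h. FOXO1 was at 98.1 and 91.7 CPM at 2 h and at 73.9 and 23.5 CPM at 6 h, against 169 to 186 CPM. At 6 h MYOG was 3.71-fold and FOXO1 3.15-fold lower at 1 µM than at 100 nM, and at 2 h they were 1.05- and 1.07-fold lower. The term for the time difference passed for neither gene (edgeR adjusted p 0.457 for MYOG and 0.886 for FOXO1). Reads of PAX3 and FOXO1 may include those of the fusion, which is not counted apart.

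As a ratio of CPM + 1, in which the change of a low gene looks smaller than it is, 8 of these 12 factors were more than 2-fold lower at 1 µM at 6 h and 0 at 2 h. Over all 12174 genes with a mean of at least 1 CPM, 82 were at 6 h and 15 at 2 h. Chosen after their values were seen, MYMX, the fusion peptide myomixer, and MSTN, the muscle growth inhibitor myostatin, also passed in the 6 h pair, with fitted log2 differences of -2.32 and -2.06 (edgeR adjusted p 0.00476 and 0.00106). RUNX2, the runt factor of bone, had -2.27 and VGLL2, a TEAD cofactor of muscle, -1.56 (edgeR adjusted p 0.0166 and 0.0271). None of the 14 tested genes of the sarcomere passed in either fit, which at shares of 0.107% and 0.388% of all genes tested says little about them. ACTC1, cardiac actin, was at 1372 (100 nM) and 1218 CPM (1 µM) at 2 h and at 1021 and 695 CPM at 6 h (edgeR unadjusted p 0.00818, adjusted p 1).

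PAX3, TFAP2B and MYCN, a MYC family factor, did not pass in either fit. PAX3 was at 54.0 (100 nM) and 50.1 CPM (1 µM) at 2 h and at 46.9 and 27.6 CPM at 6 h, against 72.6 to 78.0 CPM. MYCN was at 5.93 and 5.05 CPM at 2 h and at 3.33 and 1.02 CPM at 6 h, against 61.6 to 73.2 CPM, and its fitted log2 difference was -0.78 (95% interval -1.45 to -0.12, edgeR unadjusted p 0.024, adjusted p 1). ZEB2, a zinc-finger repressor of the mesenchymal list, passed at 6 h, where it was at 82.4 CPM with 100 nM and 26.2 CPM with 1 µM, against 208 and 182 CPM at 2 h.

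**Figure D3:**
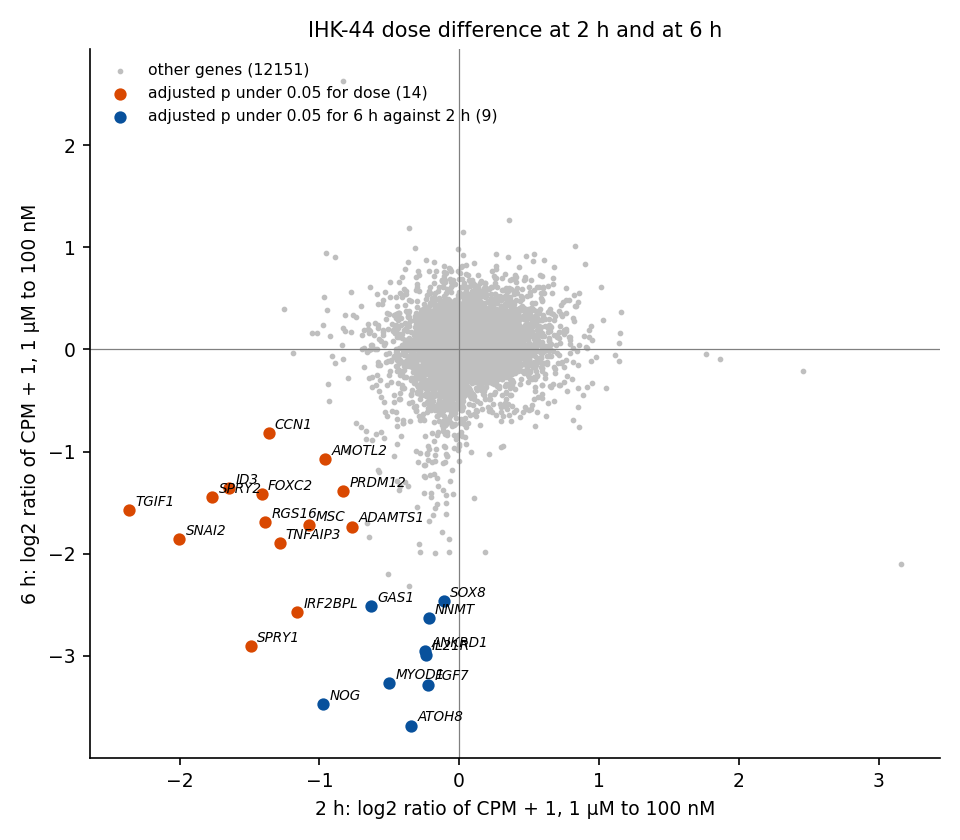
Log2 ratio of CPM + 1 at 1 µM to that at 100 nM, at 2 h (horizontal) and 6 h (vertical), with 1 point for each of 12174 genes. Orange marks the 14 genes with an adjusted p under 0.05 for dose and blue the 9 with an adjusted p under 0.05 for a dose difference that changed with time. Orange points lie low on both axes, and blue points lie low on the vertical axis.

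MYC and BMP4 were already low at 100 nM. MYC was at 63.4 to 75.6 CPM in DMSO and NT, at 5.86 (100 nM) and 5.20 CPM (1 µM) at 2 h, and at 0.833 and 1.26 CPM at 6 h, the last from 14 and 21 reads. Its fitted log2 dose difference was 0.00 (95% interval -0.51 to 0.51). BMP4, a BMP ligand, was at 26.4 to 37.1 CPM in DMSO and NT, at 3.43 and 4.31 CPM at 2 h, and at 1.73 and 1.68 CPM at 6 h (log2 0.15, 95% interval -0.35 to 0.65). FGFR4, a receptor gene and known target of the fusion factor, was near DMSO and NT at 2 h, 767 (100 nM) and 765 CPM (1 µM), and at 544 and 556 CPM at 6 h (log2 -0.02, 95% interval -0.31 to 0.27).

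The genes of the proteins aimed at did not pass either. EP300 was at 284 (100 nM) and 270 CPM (1 µM) at 2 h and at 331 and 315 CPM at 6 h, against 244 to 313 CPM in DMSO and NT (log2 -0.11, 95% interval -0.40 to 0.19). CREBBP was at 548 and 518 CPM at 2 h and at 659 and 622 CPM at 6 h, against 469 to 578 CPM (log2 -0.11, 95% interval -0.36 to 0.14). At 6 h both doses of both genes lay above all DMSO and NT libraries. These are transcripts, and the amount of protein was not measured here.

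Of 27 gene lists with a tested member, 4 held a gene called over both times, the ERK feedback, BMP, mesenchymal, and YAP and TEAD lists. ID3 alone passed of 17 BMP genes and SNAI2 alone of 6 mesenchymal factors, where 0.107% of all genes tested passed. The other 23 lists held none, and list medians among these ran from -0.83 for the rhabdomyosarcoma factors to 0.08 for the ATF4 stress genes. At that share a list of this size would seldom hold a call, and their medians are given as a description. No member passed of 14 mitosis genes (median -0.05), 14 DNA replication genes (median 0.00), 15 ribosome biogenesis genes (median -0.02) or 12 BCL2 family genes (median 0.03). JUN, an AP-1 subunit, came nearest among the immediate early genes, at 85.8 (100 nM) and 51.1 CPM (1 µM) at 2 h and 119 and 71.6 CPM at 6 h, against 491 to 510 CPM (log2 -0.77, SE 0.15, edgeR adjusted p 0.287).

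No gene passed as higher at 1 µM, and the values of HEXIM1 and MXD1 are given as examples from the lists. SOX9 and CDKN2B, a CDK inhibitor, had lower unadjusted p-values than these examples. Their log2 differences were 0.63 (95% interval 0.23 to 1.04, edgeR unadjusted p 0.00533) and 0.89 (0.28 to 1.51, edgeR unadjusted p 0.0082). CDKN2B rests on as few as 21 reads, in the 100 nM library at 2 h. HEXIM1, an inhibitor of the elongation factor P-TEFb, was at 27.1 to 32.1 CPM in DMSO and NT, at 64.2 (100 nM) and 83.2 CPM (1 µM) at 2 h, and at 94.3 and 106 CPM at 6 h (log2 0.24, 95% interval -0.13 to 0.61). MXD1, an antagonist of MYC, was at 2.86 to 7.88 CPM in DMSO and NT, at 26.1 and 33.0 CPM at 2 h, and at 37.8 and 54.7 CPM at 6 h (log2 0.41, 95% interval 0.08 to 0.73, edgeR unadjusted p 0.0197, adjusted p 1). HEXIM1 and MXD1 were above DMSO and NT at each dose, and their dose differences did not pass.

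Counted gene by gene without a test, 77 of 12174 genes were at least 1.5-fold lower at 1 µM at 2 h (0.632%) and 166 higher (1.36%), and at 6 h 214 were lower (1.76%) and 139 higher (1.14%). Read the same way, NT against DMSO had 25 genes lower with 276 higher (2 h) and 43 with 52 (6 h). The JQAD doses had 107 lower with 46 higher (2 h) and 436 with 72 (6 h). The IHK-44 counts lay between those of these pairs, other than the 139 genes higher at 6 h. The genes lower at 2 h and those lower at 6 h had 25 in common, 32.5% of the 77 and 11.7% of the 214, and 12 genes were higher at both times. Across genes, the ratios at 2 h and 6 h had a Pearson's r of 0.196 and a Spearman's rho of 0.159, a description of libraries that share compound and dose.

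Genes chosen for their level with dCBP were read in the IHK-44 dose pairs. At 2 h, 174 genes averaged over both dCBP doses were at least 2-fold below the mean of DMSO and NT. Their median log2 dose difference with IHK-44 was -0.22, with 82.8% below 0, against 0.03 and 41.2% over all genes. At 6 h the 754 such genes had a median of -0.21, with 71.1% below 0, against 0.04 and 38.5%. Genes at least 2-fold higher with dCBP had a median of 0.21 at 2 h (77 genes) and 0.22 at 6 h (605 genes). The same lists read in the JQAD doses gave medians of 0.00 and -0.05 for genes lower with dCBP and -0.01 and 0.00 for genes higher. In the A485 doses they gave -0.82 and -0.75 for genes lower and 0.31 and 0.58 for genes higher. The lists were chosen by dCBP, DMSO and NT levels among genes with a mean of at least 1 CPM over all 20 RNA-seq libraries. Only that filter used the IHK-44, A485 and JQAD libraries, and the medians are descriptions with no test.

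**Figure D4:**
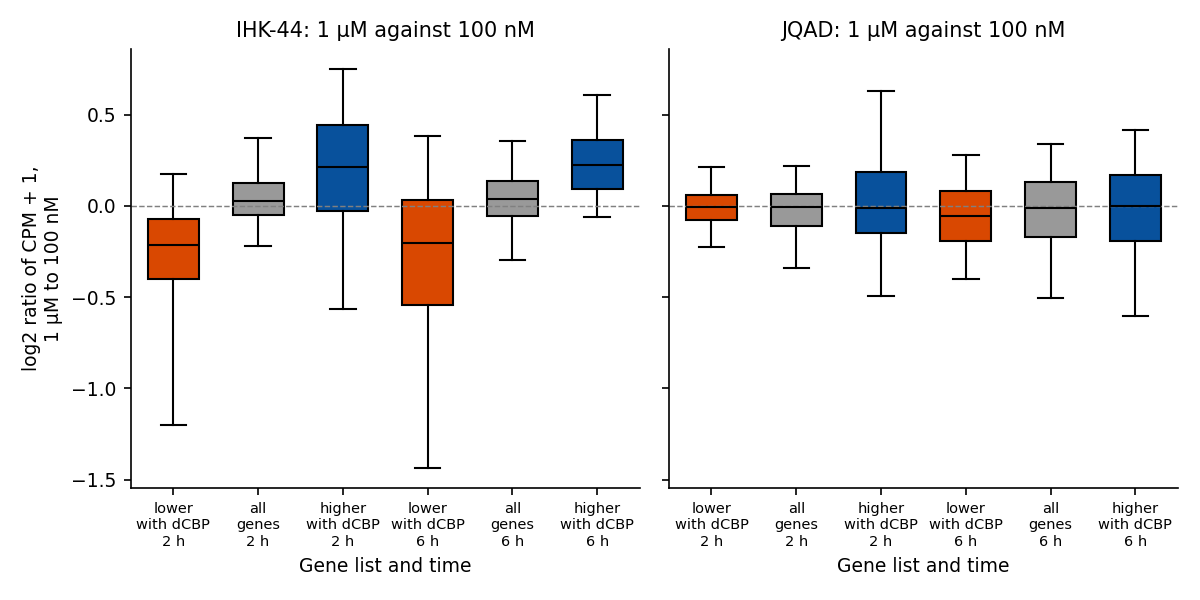
Log2 ratio of CPM + 1 at 1 µM to that at 100 nM, in the IHK-44 pair (left) and the JQAD pair (right) of each time. Orange marks genes at least 2-fold lower with dCBP, as the mean of both doses, than in DMSO and NT. Blue marks genes at least 2-fold higher by the same mean, and grey marks all genes. Boxes are quartiles with the median, and whiskers run from the 5th to the 95th percentile over genes. The IHK-44 medians are -0.22 and -0.21 for genes lower with dCBP, and those of JQAD are 0.00 and -0.05.

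Most genes that were low at 2 h were also low at 6 h, at both doses. A set of 157 genes was at least 2-fold below the mean of DMSO and NT at 2 h at both doses of IHK-44. At 6 h 133 of them (84.7%) were still 2-fold lower with 1 µM and 124 (79.0%) with 100 nM, and 7 and 10 were under 1.5-fold lower. The median log2 ratio went from -1.55 to -1.92 with 1 µM and from -1.32 to -1.60 with 100 nM. Nearer to DMSO and NT at 6 h than at 2 h were 72 of the 157 with 1 µM and 68 with 100 nM. For the called genes it was 12 of 14 at 100 nM, by percent of mean CPM in place of the log2 ratio. The 14 were called for higher levels in these same 100 nM libraries, so the counts cannot be compared, and no difference was tested. The set of 157 was chosen on the values at 2 h, which alone moves values at 6 h towards DMSO and NT.

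The IHK-44 dose difference was also set against that of the other compounds in the same model. Against A485, an inhibitor of acetyltransferase activity, it differed in 3 of 13137 genes (0.0228%), against dCBP in 1 (0.00761%) and against JQAD in 2 (0.0152%). MYC had a log2 dose difference of -2.91 with A485, from 37.4 (100 nM) to 5.76 CPM (1 µM) at 2 h and from 43.7 to 5.54 CPM at 6 h, so the contrast with IHK-44 was 2.91 (SE 0.28, edgeR adjusted p 0.00615). BMP4 had a contrast of 2.38 (SE 0.31) and SOX9, a SOX factor that was at 4.55 and 6.83 CPM at 2 h and 3.63 and 6.07 CPM at 6 h with IHK-44, of 1.89 (SE 0.25), with edgeR adjusted p of 0.0346 for each. For these 3 genes A485 separated the doses and IHK-44 at 100 nM was already below A485 at 100 nM.

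SNAI2 differed from both dCBP and JQAD. With dCBP it was at 35.9 (100 nM) and 32.5 CPM (1 µM) at 2 h and at 11.1 and 15.5 CPM at 6 h, and with JQAD at 114 and 121 CPM and at 101 and 90.0 CPM. The contrasts were -2.13 (SE 0.23, edgeR adjusted p 0.0188) and -1.996 (SE 0.22, edgeR adjusted p 0.0209). SPRY2 differed from JQAD by -1.80 (SE 0.22, edgeR adjusted p 0.0305). With dCBP, SPRY2 was at 32.9 and 27.8 CPM at 2 h and at 12.0 and 12.2 CPM at 6 h, and the contrast of -1.58 (SE 0.23) did not pass (edgeR adjusted p 0.173). The 2 doses of dCBP were thus close together for both genes, while those of IHK-44 were not. With A485 the fitted dose differences were -0.66 for SNAI2 and -1.15 for SPRY2 (edgeR adjusted p 0.0813 and 0.0044). Against A485 the IHK-44 contrasts, -1.36 (SE 0.22) for SNAI2 and -0.58 (SE 0.22) for SPRY2, did not pass.

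For the 14 genes called with IHK-44, the fitted dose differences with A485 ran from -1.99 to -0.36 (median -0.89), with dCBP from -0.60 to 0.20 (median -0.14) and with JQAD from -0.14 to 0.19 (median -0.01). A485 had 122 genes called for dose (0.929%), of which 6 were among the 14, a share of 42.9% of the IHK-44 calls and 4.92% of the A485 calls. No gene was called for the dose of dCBP or JQAD by edgeR, where 150 and 262 genes had an unadjusted p under 0.05.

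The count of 14 genes depended on the model. It was 0 by limma on log2(TPM + 1) and 0 in a fit with a time term in place of the blocks (125 and 132 genes at an unadjusted p under 0.05), 8 without the dCBP libraries and 30 with DESeq2. All genes called in these fits were lower at 1 µM. SNAI2, SPRY2 and TGIF1 passed in 13 of 15 alternatives each, and fewest passes were those of AMOTL2 (8) and ADAMTS1 (9). Without the dCBP libraries ADAMTS1, AMOTL2, CCN1, ID3, IRF2BPL and RGS16 did not pass, and without the JQAD libraries ADAMTS1 and AMOTL2 did not.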

How the data were processed

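RNA-seq of RH4 cells was used as deposited, and the ChIP-seq and ChRO-seq samples were not analysed here. Per the submitters' processing notes, STAR 2.5.3a, RSEM 1.3.3 and hg38 were used, and the role of each is not stated. The deposited expected counts are estimated reads for each of 18980 coding genes, and the CPM values deposited by the authors are these scaled to the coding total. The authors' deposited TPM served in an alternative, and their FPKM gave the total reads and so the share outside coding genes, from genes over 50 FPKM.

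Expected counts were rounded and fitted with edgeR 4.0.16 in R 4.3.3 (TMM, filterByExpr), with 8 blocks of compound and time, 4 dose terms and 4 residual degrees of freedom (3 with the time term). Adjusted p-values are Benjamini-Hochberg over all genes tested, and standard errors and intervals are of Wald type. DESeq2 1.42.0, limma 3.58.1 and Python 3.11.15 were also used. Single-library ratios used log2(CPM + 1) for genes with a mean of at least 1 CPM. Depth ran from 13466631 to 16799327 coding counts, so 1 CPM rests on few reads.

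Named genes were those called, the largest dose differences shared by or differing between the times (mean of at least 5 CPM), the 2 lowest p of each list, and 10 genes known for this line or targeted. The members, lists and rules were chosen with earlier results of these data known. Alternatives covered scaling, filters, tools, the libraries fitted, pseudocount, fold and controls. Some genes are not reported here.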

Additional observations from a re-analysis of the deposited data

Results flagged for a closer look

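The IHK-44 dose difference at 6 h differed from that at 2 h, by the test of the difference itself, for 9 genes. In log2 the difference was -4.83 for ANKRD1, -3.78 for FGF7, -3.46 for ATOH8, -3.45 for NOG and -2.96 for IL21R. It was -2.82 for MYOD1, -2.60 for NNMT, -2.39 for SOX8 and -1.99 for GAS1. In each gene the 1 µM library at 6 h gave the lowest of the 4 IHK-44 levels, and that library has no replicate.

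The dose difference of IHK-44 also differed from that of another compound for 5 genes. It was above that of A485 in log2 by 2.91 for MYC, 2.38 for BMP4 and 1.89 for SOX9. For SNAI2 the contrast was -2.13 with dCBP and -1.996 with JQAD, and for SPRY2 it was -1.80 with JQAD.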

How the results depend on the processing

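The 14 genes called for dose became 30 with DESeq2, 27 in the 4 IHK-44 libraries alone, 52 without the 2 h pair, 3 without the 6 h pair, 8 without dCBP, and 0 both by limma on log2(TPM + 1) and with no block. All 14 were included in the 30 and in the 27, and the other 8 alternatives gave 12 to 21 genes. Leaving out any 1 IHK-44 library removes its pair. The causes were not tested. Limma on log2(CPM + 1) gave 1 gene for the contrast with JQAD in place of 2. For the contrast with A485 it gave 2 in place of 3, and for the time term 7 in place of 9. The fitted log2 difference of MYC, 0.00, turned to -0.011 with RLE size factors and -0.0092 with no filter, -0.019 over 20 libraries and -0.024 without dCBP, -0.059 with no block and -0.21 without the 6 h pair. That of FGFR4 turned to 0.0136 with library totals and 0.0135 by limma on CPM, and to 0.039 on TPM. The 1.5-fold counts also moved. With a pseudocount of 0.1 they were 152 genes lower with 361 higher (2 h), 293 higher (6 h), and 40 lower with 56 higher (both times). At 2-fold they were 15 and 12 at 2 h, 82 and 5 at 6 h, and 10 and 0 at both times. The JQAD doses had 10 lower and 4 higher at 2-fold at 2 h, and 101 and 2 at 6 h. With a mean of at least 5 CPM they were 37 and 52 at 2 h, 41 higher at 6 h and 0 higher at both times. On TPM they were 34 and 65 at 2 h, 20 higher at 6 h and 2 higher at both times, and with the median gene at 0, 6 were higher at both times. The medians of genes chosen with dCBP kept their sign in the alternatives run. The share of 2 h fallers under 1.5-fold lower at 6 h, with settings chosen after seeing the data, was 4.64% to 9.88% at 100 nM and 2.65% to 6.79% at 1 µM. The main fit already pairs the doses by time, and the labels give no replicate numbers for another pairing. Genes under about 1 CPM rest on few reads.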
